A study of Mus musculus with 6 samples.

Results

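Collagens are the main structural proteins of bone, cartilage, tendon and suture mesenchyme, and each is a trimer of chains wound into a triple helix. All 44 measured genes that encode a collagen chain were compared between the Axin2+/GFP+ and Axin2-/GFP- cell populations of the calvarial suture, out of 19938 genes tested. The genes were chosen by name, as every array feature whose only gene symbol is that of a collagen chain, and for Col6a5 and Col6a6, each with 2 features, the brighter feature was used. They fall into 11 fibrillar chains, 9 FACIT chains (collagens that sit on the surface of fibrils), 6 basement membrane chains, 3 network chains, 4 transmembrane chains and 11 others (type VI and XXVIII beaded filaments, the anchoring fibril of type VII, types XV and XVIII, and type XXVI).

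Fibrillar collagens assemble into the banded fibres that carry tension. Types I, III and V form mixed fibrils in bone and fibrous tissue, and types II and XI do so in cartilage. Type IV makes the sheet-like network of basement membranes, type VI makes fine beaded filaments around cells, and type X marks hypertrophic cartilage. The chains are hydroxylated and folded in the endoplasmic reticulum, then trimmed and crosslinked outside the cell. Osteoblasts secrete type I collagen as the scaffold of calvarial bone, which forms without a cartilage template.

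The study asked how suture cells that express Axin2, an inhibitor and target of Wnt signalling, differ from those that do not. All mice carried the Axin2rtTA and TRE-H2BGFP transgenes on a mixed background of C57BL/6J, CD-1 and B6CBAF2 and received doxycycline from postnatal day 25 to postnatal day 28, when the suture mesenchyme was digested with collagenase and sorted. Both groups therefore share genotype, drug, age and dissociation and were separated by GFP, since rtTA under Axin2 control switches on the histone-GFP fusion. Each group had 3 biological replicates, each a pool of 6 to 8 mice. Levels are given as log2 values of the deposited arrays and a log2 change of 1 is a doubling.

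The deposited arrays did not share one distribution. The median log2 change (Axin2+/GFP+ minus Axin2-/GFP- throughout) was 0.25 for genes with a mean log2 value under 3 and -0.57 for genes at 5 or more, against 0.14 over all genes. The 1178 olfactory and vomeronasal receptor genes, which serve here as a gauge of dim features, had a median change of 0.30. Correlations between arrays across genes were 0.91 to 0.92 among Axin2+/GFP+ samples and 0.97 in each pair of Axin2-/GFP- samples. Of 7 measured suture mesenchyme markers, 0 were called and 2 (Msx2 and Pdgfra) lay in both groups at a level that at least 5% of the receptor genes reached. Of 6 measured osteoblast markers 2 rose, Ibsp (bone sialoprotein) by 1.84 and Dmp1 by 0.88 (limma adjusted p = 0.00211 and 0.0323). Of 6 tendon markers 1 rose, Mkx by 0.84 (limma adjusted p = 0.0345). Dmp1 was among 4 osteoblast markers that lay at that dim level in both groups, and Mkx lay at it in Axin2-/GFP- cells only. The median change was 0.29 for the suture mesenchyme list, 0.44 for the osteoblast list and 0.46 for the tendon list. While 0 of the 3 lists held a gene called lower, some changes were negative. The osteoblast marker Alpl changed by -0.52 with no overlap (limma adjusted p = 0.0739). Thy1 (-0.63) and Msx1 (-0.03) of the suture list and Fmod (-0.07) of the tendon list had overlapping groups. Higher with no overlap but not called were Prrx1 (0.88) and Twist1 (0.77) of the suture list. So were Phex (0.52) and Mepe (0.36) of the osteoblast list and Scx (0.67) and Tnc (0.52) of the tendon list. Their limma adjusted p ran from 0.0526 to 0.148, and Phex, Mepe and Scx lay at that dim level in both groups. Blood cell markers differed. The summed log2 level of a list is here the log2 of the sum of its markers' unlogged values, so the brightest markers weigh most. Of 13 B-lineage markers 13 were lower, at a summed log2 level of 6.67 to 6.78 in Axin2+/GFP+ against 10.82 to 11.26 in Axin2-/GFP- samples. Of 17 neutrophil markers 14 were higher, at 14.44 to 14.54 against 11.65 to 13.31. Among 10 measured macrophage markers 0 were higher and 2 were lower, Cd68 by 1.49 and Ccr2 by 1.41, and the median change was -0.24. Over all genes tested 4.64% were higher and 11.4% were lower. In Axin2+/GFP+ cells 7 of the B-lineage markers and 0 of the neutrophil markers were as dim as that level, and in Axin2-/GFP- cells 0 of either. The part of these cells in the collagen differences was not tested, and in sorted bulk samples a change in the number of cells of a type cannot be told apart from a change in RNA per cell.

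The collagen genes that passed the test were all higher in Axin2+/GFP+ cells. In limma, 14 of the 44 collagen genes were higher in Axin2+/GFP+ cells and 0 were lower at an adjusted p under 0.05, or 31.8% higher, while over all genes tested 4.64% were higher and 11.4% were lower. At an unadjusted p under 0.05 limma called 24 higher and 0 lower, against 16.3% and 17.6% of all genes. The change was positive for 42 genes and negative for 2, Col5a3 and Col8a1. The median change of the collagens was 0.46, with a range from -0.33 to 1.95. The populations did not overlap for 25 collagens, against 40.9% of all genes. In all 25 every Axin2+/GFP+ sample was above every Axin2-/GFP- sample, which held for 23.1% of all genes, and 0 collagens lay wholly below, against 17.8%. By class, 8 of 11 fibrillar, 3 of 9 FACIT, 1 of 3 network and 2 of 11 other chains rose, and 0 of 6 basement membrane and 0 of 4 transmembrane chains were called. Differences between the classes were not tested.

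These counts were also read by signal. Of the 4 collagens with a mean log2 value of 5 or more, 4 rose, where 6.22% of all genes in that range did. In the range from 3 to 5 the count was 9 of 22, against 4.31% of genes, and under 3 it was 1 of 18, against 4.61%. Their median changes were 1.69, 0.53 and 0.30 in the same order, and those of all genes were -0.57, -0.19 and 0.25. Bright collagens were thus higher in a range where most genes were lower, while the dim collagens changed about as much as other dim genes.

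**Figure D1:**
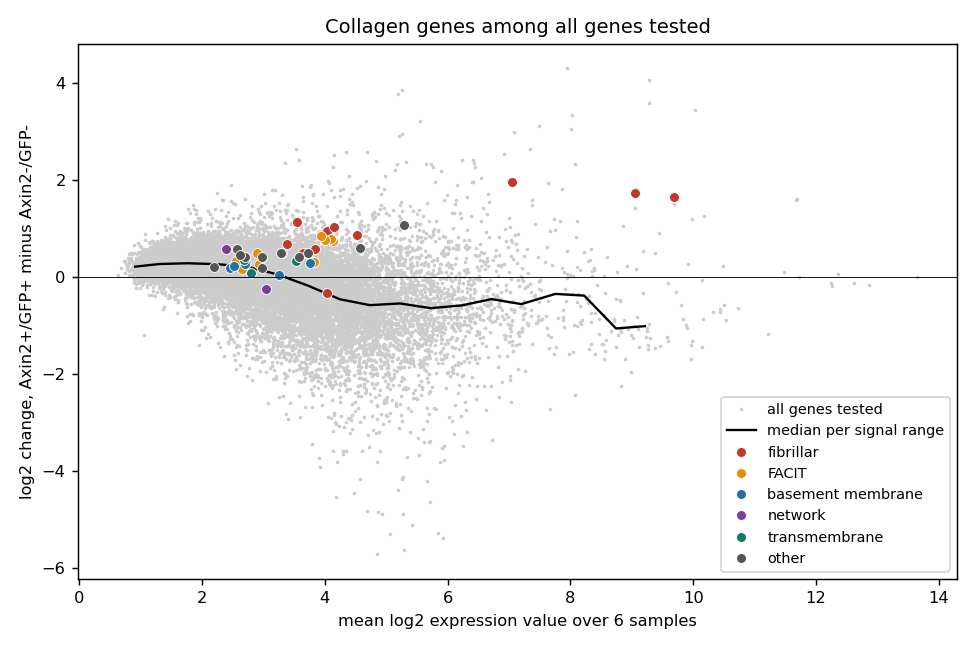
The log2 change of each gene between Axin2+/GFP+ and Axin2-/GFP- cells (vertical) is plotted against its mean log2 value over the 6 samples (horizontal), with grey points for all genes, a black line for their median in each signal range of 0.5 log2 units with at least 20 genes, and coloured points for collagens by class. The 4 collagens with a mean of 5 or more lie far above the black line, and the dim collagens lie near it.

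The upstream sequences of the fibrillar genes with the largest and second largest change and of the FACIT gene with the smallest p are shown as the leading genes of their classes, chosen after their values were seen. Each run holds the 250 bases before the annotated start of the gene in RefSeq (build GRCm38.p6), 5′ to 3′, and capitals mark, on either strand, the TATA box letters TATAAA, the CCAAT box letters CCAAT and the GC box letters GGGCGG. No matches overlap in these runs.
Col3a1, chr1:45311288-45311537, plus strand: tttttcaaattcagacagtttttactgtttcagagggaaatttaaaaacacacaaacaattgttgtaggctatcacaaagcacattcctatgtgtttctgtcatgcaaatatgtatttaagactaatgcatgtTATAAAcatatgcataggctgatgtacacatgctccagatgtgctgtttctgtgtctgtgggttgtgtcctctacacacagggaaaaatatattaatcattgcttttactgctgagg
Col1a2, chr6:4505368-4505617, plus strand: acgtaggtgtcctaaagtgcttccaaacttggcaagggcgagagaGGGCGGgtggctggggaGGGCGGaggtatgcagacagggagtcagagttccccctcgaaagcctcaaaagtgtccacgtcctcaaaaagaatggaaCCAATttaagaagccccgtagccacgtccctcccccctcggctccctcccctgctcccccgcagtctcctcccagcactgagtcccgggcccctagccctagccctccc
Col16a1, chr4:130047590-130047839, plus strand: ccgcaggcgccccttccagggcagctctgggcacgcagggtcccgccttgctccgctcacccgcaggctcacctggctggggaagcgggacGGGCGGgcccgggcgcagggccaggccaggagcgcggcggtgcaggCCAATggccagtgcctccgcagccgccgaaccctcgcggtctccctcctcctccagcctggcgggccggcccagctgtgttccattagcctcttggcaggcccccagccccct
The Col3a1 window holds TATAAA and neither of the other motifs, and the windows of Col1a2 and Col16a1 hold CCAAT and GGGCGG without TATAAA. A window was found for 35 of the 44 collagens and 10 of the 14 called ones, some with more than 1 window. Over the collagen windows 13.2% held TATAAA, 34.2% held CCAAT and 57.9% held GGGCGG, against 12.4%, 33.8% and 32.7% of all windows of that length. Of the 11 windows of called collagens, 3 held TATAAA, 3 held CCAAT and 8 held GGGCGG. A match is a description of the letters in the window and not a site of binding.

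Type I collagen is a trimer of 2 chains encoded by Col1a1 and 1 encoded by Col1a2, and it is the main protein of bone matrix. Col1a1 was read at log2 values of 10.34, 10.83 and 10.37 in Axin2+/GFP+ cells and 9.0, 8.44 and 9.14 in Axin2-/GFP- cells, a change of 1.66 (limma adjusted p = 0.00286, SE 0.24). Col1a2 was read at 9.67, 10.21 and 9.85 against 8.36, 7.91 and 8.29, a change of 1.72 (limma adjusted p = 0.00139, SE 0.21). Both chains rose about 3-fold, with folds of 3.15 and 3.30, and in neither did the populations overlap. Replicate 2 was the highest of the Axin2+/GFP+ and the lowest of the Axin2-/GFP- samples for both chains.

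Col3a1 encodes the chain of type III collagen, a homotrimer of loose and repairing connective tissue. It had log2 values of 7.66, 8.46 and 7.96 in Axin2+/GFP+ and 6.33, 5.84 and 6.05 in Axin2-/GFP- cells. The change was 1.95, or 3.88-fold (limma adjusted p = 0.00139, SE 0.24). It was the largest among the 44 collagens and exceeded that of 99.78% of all genes tested. The calls of Col1a1, Col1a2 and Col3a1 held without any 1 of the 6 samples and under every scaling tried.

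Type V collagen co-assembles with type I and sets the diameter of its fibrils. Col5a1 was read at 4.26, 5.0 and 4.72 against 3.68, 3.51 and 3.73, a change of 1.02 (limma adjusted p = 0.0156, SE 0.22). For Col5a2 the values were 3.91, 4.72 and 3.73 against 3.03, 2.90 and 3.04, a change of 1.13 (limma adjusted p = 0.0207, SE 0.26). The third chain of the family went the other way. Col5a3 was read at 3.74, 4.04 and 3.85 in Axin2+/GFP+ cells and at 4.01, 4.17 and 4.43 in Axin2-/GFP- cells, a change of -0.33 (limma adjusted p = 0.236, SE 0.18). It did not pass and its groups overlapped, with Axin2+/GFP+ replicate 2 just above Axin2-/GFP- replicate 1. After centring on the receptor genes it was called lower, at -0.65 (limma adjusted p = 0.0462), and its adjusted p ran up to 0.942 over all the alternatives. The call of Col5a1 ended without Axin2-/GFP- replicate 1 (1.04) or 2 (0.96) and that of Col5a2 without Axin2-/GFP- replicate 1 (1.15), 2 (1.09) or 3 (1.16), and both ended after centring on the receptor genes (0.70 and 0.81).

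Types II and XI are the fibrillar collagens of cartilage, although type XI chains also occur in bone. Col2a1 was read at 4.14, 4.89 and 4.51 against 3.69, 3.62 and 3.41, a change of 0.94 (limma adjusted p = 0.0226, SE 0.22). Col11a2 was read at 4.66, 5.31 and 4.89 against 4.06, 4.08 and 4.11, a change of 0.87 (limma adjusted p = 0.0220, SE 0.20). Col11a1 was read at 3.50, 3.94 and 3.71 against 3.18, 2.82 and 3.12, a change of 0.68 (limma adjusted p = 0.0449, SE 0.19). In each of the 3 genes every Axin2+/GFP+ sample was above every Axin2-/GFP- sample. All 3 calls ended after centring on the receptor genes, at changes of 0.62, 0.55 and 0.36. Without 1 sample the call held in 2 of 6 cases for Col2a1, ending without Axin2+/GFP+ replicate 2 or any Axin2-/GFP- replicate (0.75 to 1.0). It held in 3 of 6 for Col11a2, ending without any Axin2-/GFP- replicate (0.86 to 0.88), and in 1 of 6 for Col11a1, remaining only without Axin2+/GFP+ replicate 1. The call of Col11a1 ended also after median centring (0.56), with an intensity trend and with the replicate number as a block. Of 7 chondrocyte markers that are not collagens, 0 were called and 5 lay in both groups at a level that at least 5% of the receptor genes reached. Their median change was 0.34, from 0.04 for Acan (aggrecan) to 1.11 for Chad (chondroadherin), and 2 of 7, Chad and Hapln1, were higher without overlap at an unadjusted p under 0.05.

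The other fibrillar chains, Col24a1 and Col27a1, did not pass. Col24a1 was read at 3.88, 3.97 and 3.81 against 3.39, 3.35 and 3.44 with no overlap, a change of 0.49 (limma adjusted p = 0.0648). It was called after quantile normalization (0.68) and cyclic loess (0.63) and by the methods' t-test after adjustment. Col27a1 had a change of 0.57 (limma adjusted p = 0.125), and its groups overlapped. No fibrillar gene lay in either group at a level that 5% of the receptor genes reached.

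**Figure D2:**
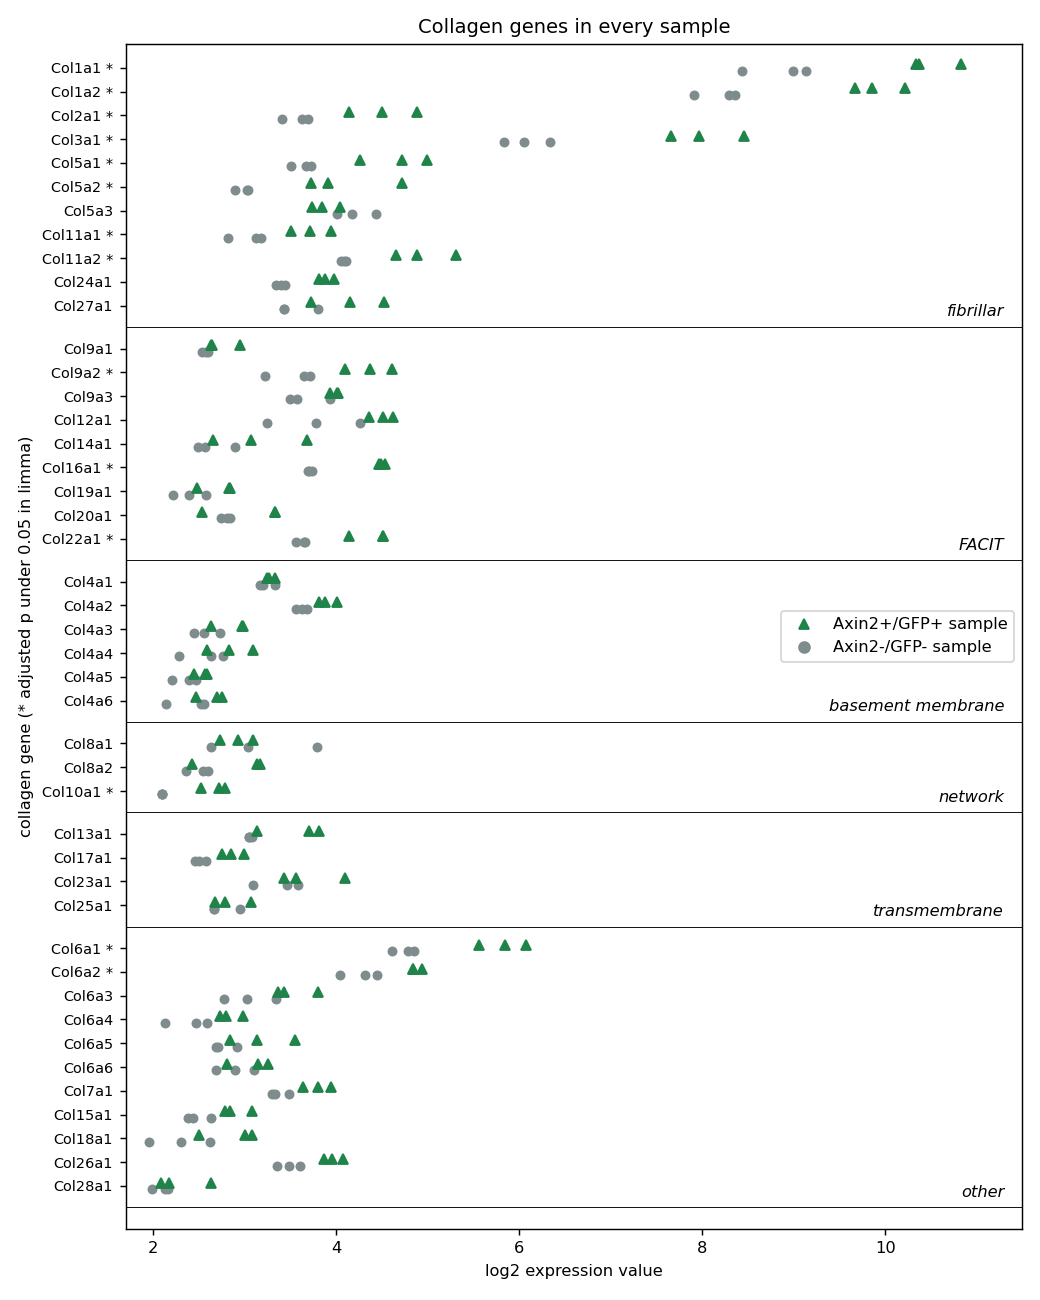
Log2 expression values (horizontal) of the 44 collagen genes (vertical, by class) are shown with 1 symbol per sample, green triangles for Axin2+/GFP+ and grey circles for Axin2-/GFP- cells, and an asterisk for an adjusted p under 0.05. The 3 triangles stand clear of the 3 circles for Col1a1, Col1a2 and Col3a1 and are mixed with them for most basement membrane chains.

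Among the FACIT collagens, Col16a1, Col22a1 and Col9a2 rose. Col16a1, a chain found in fibrillar matrix of skin and cartilage, was read at 4.47, 4.5 and 4.54 in Axin2+/GFP+ and 3.70, 3.73 and 3.69 in Axin2-/GFP- cells. Its change of 0.79 (limma adjusted p = 0.0108, SE 0.15) came with the tightest replicates of the called FACIT genes (SD 0.03 and 0.02, n = 3 each). The call held without any 1 sample and ended after centring on the receptor genes (0.47). Col22a1, a collagen of tissue junctions such as that of muscle and tendon, was read at 4.14, 4.51 and 4.52 against 3.66, 3.56 and 3.64, a change of 0.77 (limma adjusted p = 0.0207, SE 0.18). The call was lost when Axin2+/GFP+ replicate 2 was left out (0.71), when Axin2-/GFP- replicate 1 (0.79), 2 (0.74) or 3 (0.78) was, and after centring on the receptor genes (0.45).

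Type IX collagen coats type II fibrils and is built of 3 different chains, of which 1 rose. Col9a2 was read at 4.10, 4.62 and 4.37 against 3.65, 3.71 and 3.22, a change of 0.84 (limma adjusted p = 0.0304, SE 0.21). Col9a1 had a change of 0.17 (adjusted p = 0.484) and Col9a3 of 0.32 (adjusted p = 0.239), and neither passed in limma. The call of Col9a2 ended after centring on the receptor genes (0.52) and in every case of 1 sample left out except Axin2+/GFP+ replicate 1 (0.68 to 0.93). Col9a1 lay at the level of dim features in both populations.

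Col12a1, which binds type I fibrils in tendon, periosteum and ligament, was read at 4.62, 4.52 and 4.35 against 4.26, 3.77 and 3.24. The groups did not overlap, but the Axin2-/GFP- samples spread widely (SD 0.51, n = 3), and the change of 0.74 did not pass (limma adjusted p = 0.0822, SE 0.26). It was called after quantile normalization (1.04), after cyclic loess (1.02) and without Axin2-/GFP- replicate 1 (0.99). Col14a1, a related chain, had a change of 0.49 (limma adjusted p = 0.227), with Axin2+/GFP+ samples at 2.66, 3.68 and 3.07. Col19a1 and Col20a1 had changes of 0.32 and 0.27 and overlapping groups.

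Basement membrane collagen did not differ detectably in these arrays. The 6 type IV chains had changes of 0.05 to 0.28 with a median of 0.25, and their adjusted p ran from 0.245 to 0.837 in limma. Col4a2, which with Col4a1 supplies the ubiquitous type IV trimer, was read at 4.01, 3.82 and 3.88 against 3.68, 3.57 and 3.63, a change of 0.28 (SE 0.16). It was the only type IV gene without overlap. Its partner Col4a1 had means of 3.28 and 3.23, a change of 0.05 (SE 0.16). Col4a3, the next by p, was read at 2.98, 2.63 and 2.97 against 2.45, 2.73 and 2.56, with overlapping groups. Col4a4 was read at 2.58, 3.09 and 2.83 against 2.64, 2.29 and 2.77, also with overlap. Col4a3, Col4a4, Col4a5 and Col4a6 lay in both populations at a level that at least 5% of the receptor genes reached. All 6 changes were smaller than the median change of the receptor genes. Of 11 endothelial markers, cells that make much of this collagen, 1 was called, Pecam1, which fell by 2.23 on the log2 scale (limma adjusted p = 0.00119) and is also made by leukocytes. The endothelial list had a median change of 0.07 and its summed log2 level was 6.61 to 6.71 in Axin2+/GFP+ and 6.83 to 7.20 in Axin2-/GFP- samples, or 6.42 to 6.61 against 6.24 to 6.53 without Pecam1. Cldn5, a tight junction protein of endothelium, had a change of 0.71 with no overlap (limma adjusted p = 0.0528). Tie1 was also higher (0.24) and Cdh5 lower (-0.34) with no overlap, and neither was called (limma adjusted p = 0.310 and 0.216). Of the 11 markers, 6 lay at the level of dim features in both groups, Tie1 and Cdh5 among them. Cldn5 lay there in Axin2-/GFP- cells only.

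Of the 3 network collagens, 2 had a mean log2 value under 3. Col10a1, the type X chain, was read at 2.52, 2.78 and 2.72 in Axin2+/GFP+ and 2.10, 2.09 and 2.09 in Axin2-/GFP- cells. The change of 0.58 passed the test (limma adjusted p = 0.0440, SE 0.16) and the groups did not overlap, but it was no brighter than 10.5% of the receptor genes in Axin2+/GFP+ cells and 17.0% of them in Axin2-/GFP- cells. Its call remained in 2 of the 8 other settings that tested it with all samples and in 1 of 6 with a sample left out, and after cyclic loess the change was 0.34 (limma adjusted p = 0.219). Col8a2, a chain of the hexagonal lattice of type VIII collagen, was read at 3.13, 3.16 and 2.43 against 2.36, 2.60 and 2.55, a change of 0.41 (limma adjusted p = 0.237). For Col8a1 the values were 2.73, 2.92 and 3.09 against 3.79, 2.64 and 3.04, a change of -0.24 (limma adjusted p = 0.552, SE 0.29). The negative sign rested on Axin2-/GFP- replicate 1, without which the change was 0.08.

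Transmembrane collagens span the cell membrane and 0 of 4 passed. Col13a1, found at sites of adhesion and at the neuromuscular junction, was read at 3.13, 3.81 and 3.70 against 3.05, 3.08 and 3.05, a change of 0.49 (limma adjusted p = 0.139, SE 0.21). It was called without Axin2+/GFP+ replicate 1 (0.70). Col17a1, the hemidesmosome collagen of epithelia, was read at 2.99, 2.85 and 2.76 against 2.51, 2.46 and 2.58, a change of 0.35 (limma adjusted p = 0.162). In these 2 genes the populations did not overlap, and Col17a1 lay at the level of dim features in both. Col23a1 was read at 3.43, 3.56 and 4.10 against 3.09, 3.58 and 3.46, with overlap. Col25a1, with a change of 0.09, turned negative under each scaling tried and without Axin2+/GFP+ replicate 2.

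Among the other chains, 2 of the type VI genes rose. Col6a1 was read at 5.84, 6.08 and 5.56 in Axin2+/GFP+ and 4.61, 4.86 and 4.79 in Axin2-/GFP- cells, a change of 1.07 or 2.11-fold (limma adjusted p = 0.00713, SE 0.19). Col6a2 was read at 4.84, 4.94 and 4.85 against 4.05, 4.31 and 4.45, a change of 0.61 (limma adjusted p = 0.0474, SE 0.17). The call of Col6a1 held without any 1 sample and under every scaling, while that of Col6a2 ended without any 1 of the 6 samples (0.49 to 0.70), after median centring (0.49), after centring on the receptor genes (0.29) with an intensity trend and with the replicate number as a block. Col6a3, the longest chain of the common type VI trimer, was read at 3.37, 3.80 and 3.43 against 3.02, 2.78 and 3.34. Its groups did not overlap and its change of 0.49 did not pass (limma adjusted p = 0.141). Col6a4, Col6a5 and Col6a6, which can take the place of Col6a3 in the trimer, had changes of 0.45, 0.41 and 0.18 and did not pass. The 2 features of Col6a5 gave changes of 0.41 and 0.06, and those of Col6a6 gave 0.18 and 0.25.

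Col26a1 was read at 3.86, 4.08 and 3.96 against 3.35, 3.49 and 3.61, a change of 0.48 (limma adjusted p = 0.0801), and it was called after quantile normalization (0.71) and cyclic loess (0.65). Col7a1, which anchors epithelial basement membrane to the dermis, had a change of 0.42 (limma adjusted p = 0.120). Col15a1 and Col18a1, whose C-terminal fragments include endostatin in the latter, had changes of 0.42 and 0.57 and did not pass. All but Col18a1 of these 4 genes had no overlap between the populations. Col28a1 had a change of 0.21. Col15a1, Col18a1 and Col28a1 lay in both populations at the level of dim features, which at least 5% of the receptor genes reached. Of the 44 collagens 13 lay there in both, among them also Col6a4, Col8a2, Col10a1, Col17a1 and Col19a1.

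**Figure D3:**
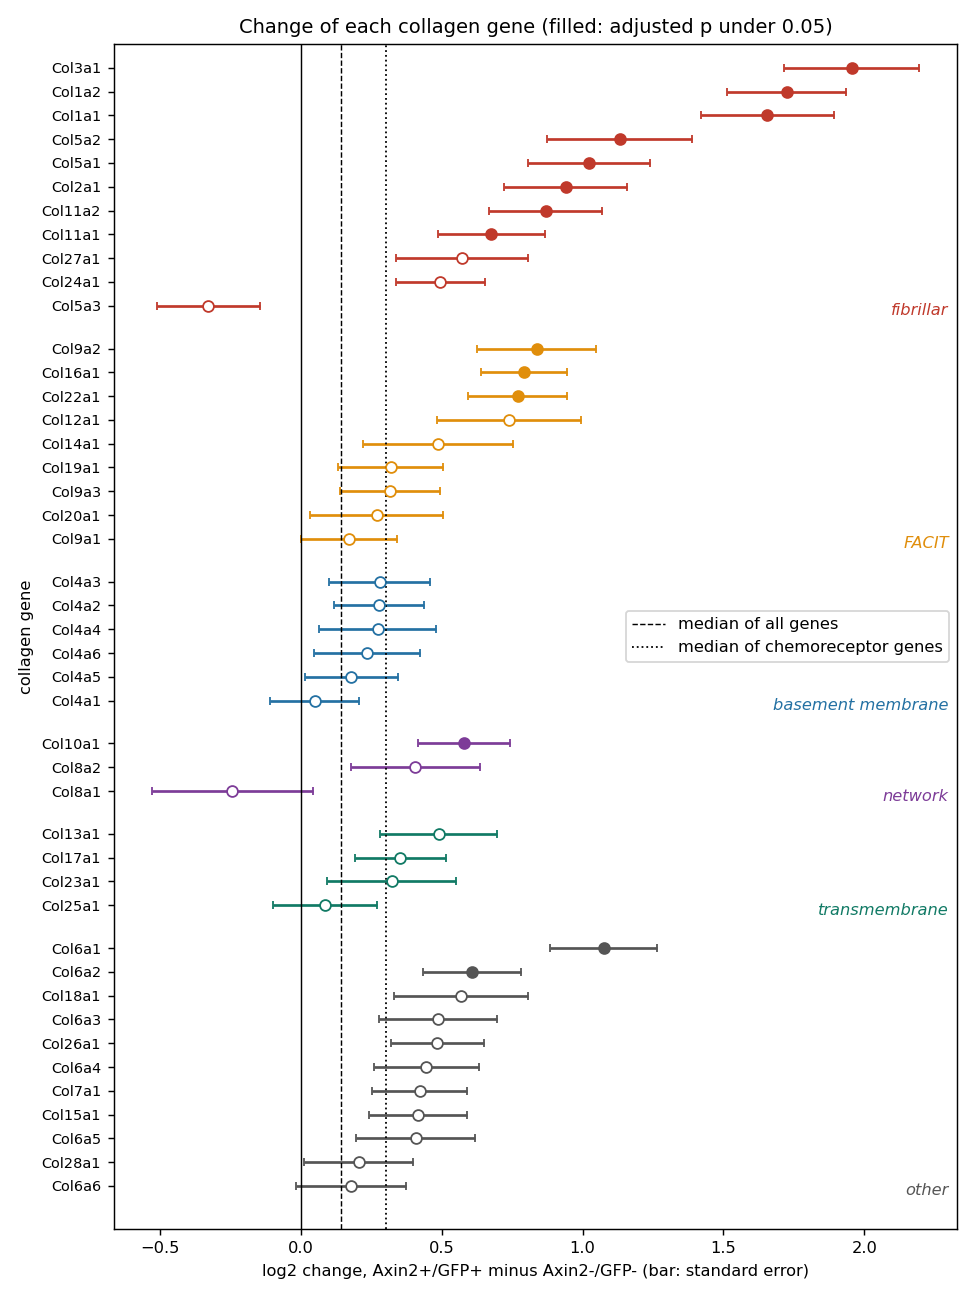
The log2 change of each collagen gene between Axin2+/GFP+ and Axin2-/GFP- cells runs along the horizontal axis with its standard error, by class and in order of size, with filled points for an adjusted p under 0.05, a dashed line at the median of all genes (0.14) and a dotted line at the median of the olfactory and vomeronasal receptor genes (0.30). The filled points are mostly fibrillar chains, and the 6 basement membrane chains lie at or left of the dotted line.

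Chains of 1 molecule were compared within each array, as the difference in log2 value between 2 chains, over 8 pairs. The difference between Col1a1 and Col1a2 moved by -0.07 between the populations, and that between Col5a1 and Col5a2 by -0.11. These shifts were small beside the changes of the chains themselves, which were 1.66 and 1.72 for the first pair. Col6a1 rose by 0.47 more than Col6a2 and its change exceeded that of Col6a3 by 0.59. The change of Col9a2 exceeded that of Col9a1 by 0.67, but Col9a1 lay at the level of dim features in both groups and its change cannot be read as that of its RNA. In these 3 pairs the populations reached the exact two-sided permutation p of 0.1, the smallest that 3 samples against 3 allow, which is 0.267 after Benjamini-Hochberg adjustment over the 8 pairs. The shift was -0.23 for Col4a1 against Col4a2, -0.65 for Col8a1 against Col8a2 and -0.19 for Col11a1 against Col11a2, with exact p of 0.2, 0.3 and 0.3. Col8a2 lay at the level of dim features in both groups and Col8a1 in Axin2+/GFP+ cells, so their shift cannot be read as that of their RNA either.

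Several collagen genes are neighbours on their chromosome. Col3a1 and Col5a2 lie next to each other on chromosome 1 and rose by 1.95 and 1.13, and Col6a1 and Col6a2 on chromosome 10 rose by 1.07 and 0.61. No member of the other neighbouring groups was called. These were Col4a3 and Col4a4 (0.28 and 0.27) and Col9a1 and Col19a1 (0.17 and 0.32) on chromosome 1, Col4a1 and Col4a2 (0.05 and 0.28) on chromosome 8, Col4a5 and Col4a6 (0.18 and 0.23) on the X chromosome, and Col6a4, Col6a5 and Col6a6 (0.45, 0.41 and 0.18) on chromosome 9.

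The replicates were not alike in collagen level. Among the Axin2+/GFP+ samples replicate 2 was the highest for 31 of the 44 collagens, which is 70.5%, where it was the highest for 34.6% of all genes. It was the highest for 11 of 11 fibrillar chains. Replicate 1 was the lowest of that group for 30 of the 44 collagens, which is 68.2%, against 38.1% of all genes. In the same samples the summed log2 level of the suture mesenchyme markers was 6.64, 6.99 and 6.54. That of the pericyte and smooth muscle markers was 6.24, 6.97 and 6.32, and both were highest in replicate 2. Replicate 2 was also the highest for the tendon (7.31), chondrocyte (6.07), macrophage (7.54) and endothelial (6.71) markers. The same held for the collagen enzymes and chaperones (8.96) and the collagen receptors (6.70). For the osteoblast markers the level was 6.38, 5.96 and 6.38, lowest in replicate 2, as it was for the B-lineage (6.67) and neutrophil (14.44) markers. Each of these levels weighs the brightest markers of its list most, such as Cd14 among the macrophage and Ibsp among the osteoblast markers. The part of these cell types in the order of the replicates was not tested. Without replicate 2 the number of collagens higher was 8, where 3.29% of all genes were higher, and the median change of the collagens was 0.38. Among the Axin2-/GFP- samples replicate 2 was the lowest for 7 of 11 fibrillar chains, against 30.7% of all genes.

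Of 26 measured genes for the enzymes and chaperones that modify and fold collagen chains, 2 rose, 1 fell and 23 did not pass in limma, where 4.64% of all genes rose and 11.4% fell. Their median change was 0.36. Serpinh1, the collagen chaperone HSP47, was read at 5.25, 5.98 and 5.61 in Axin2+/GFP+ and 4.96, 4.81 and 4.72 in Axin2-/GFP- cells, a change of 0.79 (limma adjusted p = 0.0413, SE 0.22). P3h1, a prolyl 3-hydroxylase of type I collagen, was read at 3.02, 3.43 and 2.86 against 2.32, 2.46 and 2.28, a change of 0.75 (limma adjusted p = 0.0339, SE 0.19). In neither gene did the populations overlap. P3h1 lay at the level of dim features in Axin2-/GFP- cells only, and 8 of the 26 genes lay there in both groups. Pcolce, which enhances the trimming of procollagen, had a change of 0.76 (adjusted p = 0.0573) and P3h3 of 0.75 (adjusted p = 0.0730), and neither passed in limma. Colgalt1, which attaches galactose to hydroxylysine of collagen, fell by 1.49 on the log2 scale (limma adjusted p = 0.00669, SE 0.26). It was read at 3.73, 4.31 and 3.76 against 5.35, 5.04 and 5.88. Of 9 measured collagen receptors 0 were called in limma, 0 also at an unadjusted p under 0.05, and their median change was 0.16.

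The size of the collagen changes moved with the scaling of the arrays. Across 3 Axin2+/GFP+ and 3 Axin2-/GFP- samples, the number higher was 11 with median centring, 16 with quantile normalization, 16 with cyclic loess and 4 with centring on the receptor genes, each with 0 lower except the last, with 1. Over all genes the share higher was 2.21%, 3.85%, 3.94% and 1.05% in the same order. The 4 genes called higher in each of these scalings and in the values as deposited were Col1a1, Col1a2, Col3a1 and Col6a1. The methods' t-test called 21 collagens higher and 0 lower at its own unadjusted threshold, against 14.8% and 13.8% of all genes, and after Benjamini-Hochberg adjustment it called Col1a2, Col16a1 and Col24a1. Of the 4 genes, Col1a2 passed that adjusted test (adjusted p = 0.0456), and the other 3 had an adjusted p of 0.0506 to 0.0619 there. Col3a1 had changes of 1.64 to 2.58 over all the alternatives.

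**Figure D4:**
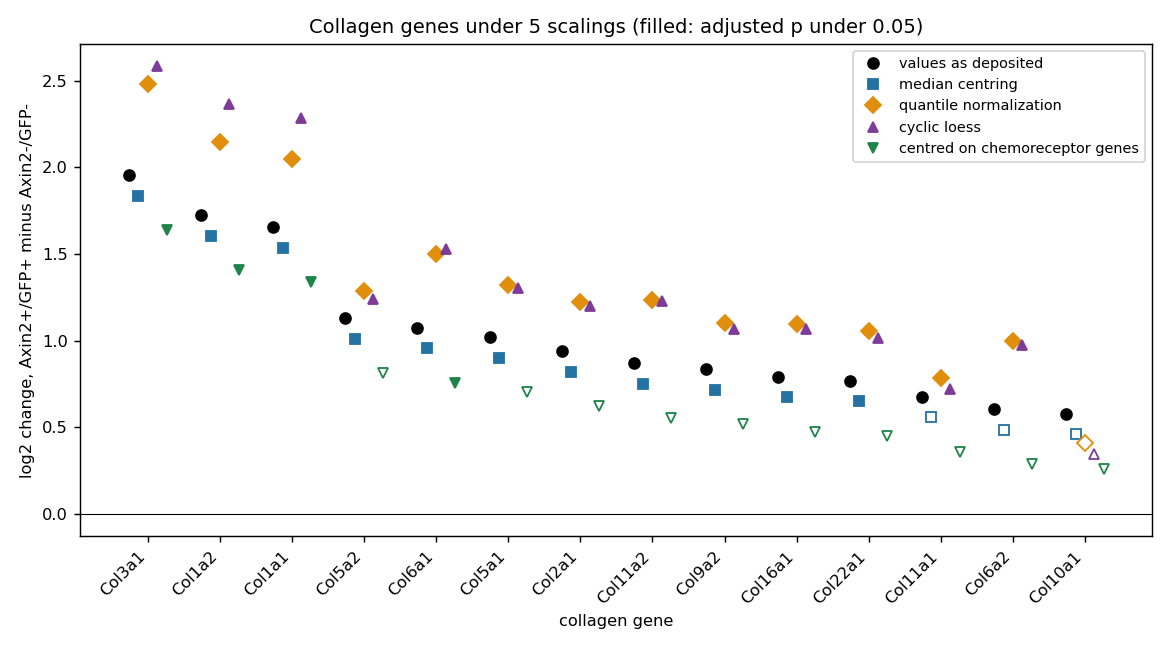
The log2 change between Axin2+/GFP+ and Axin2-/GFP- cells (vertical) of the 14 collagen genes called in the deposited values (horizontal) is shown under 5 scalings of the arrays, 1 symbol for each, filled at an adjusted p under 0.05. All points lie above 0, and only Col3a1, Col1a2, Col1a1 and Col6a1 are filled under all 5 scalings.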

How the data were processed

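Total RNA of sorted suture cells was hybridised to Affymetrix whole-transcript arrays. The values deposited by the authors are log2 expression per feature, with 1 column for each sample. RMA and R 3.2.1 appear in the processing notes of the submitters, and the further settings were not given in the sources used here. Precision is limited by the number of arrays, and a p-value here covers only the spread among these pools.

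Of 35557 features, 21789 carry 1 gene symbol in the platform's probe table. A gene was read by its feature with the highest mean over the 6 samples. All 44 collagens matched a RefSeq gene by identifier. Every gene was fitted by lmFit and eBayes (limma 3.58.1, R 4.3.3), with p adjusted by Benjamini-Hochberg over 19938 genes at 0.05. The procedure was also run on simulated data with independent noise. That simulation held no shift with signal such as the deposited arrays show, so it does not cover the effect of that shift. Values were given in each sample for called collagens and for up to 3 of each class with the smallest p. Those of Col5a3, Col6a3, Col12a1, Col14a1 and Col24a1 were added after they were seen.

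The collagens, the classes and lists, the tests and the alternatives were chosen with earlier results of these data known. The alternatives were an intensity trend, the methods' t-test, a replicate block, 4 scalings, a filter at a mean log2 value of 3, the mean of a gene's features and leaving out each sample.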

Additional observations from a re-analysis of the deposited data

How the results depend on the processing

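Of 44 collagens, 14 were higher and 0 lower in the values as deposited. Without 1 sample the number higher ran from 5 (without Axin2-/GFP- replicate 2) to 14, with 6 without Axin2-/GFP- replicate 1, 6 without Axin2-/GFP- replicate 3, 8 without Axin2+/GFP+ replicate 2 and 10 without replicate 3 of that group. By class that range was 3 to 8 fibrillar, 1 to 3 FACIT, 0 to 1 network, 1 other, 0 to 1 transmembrane and 0 basement membrane, and the median change ran from 0.38 to 0.53. The number lower was 0 in each. Fewer samples enter these fits, and over all genes the share higher was 1.2% to 1.44% without an Axin2-/GFP- replicate and 3.29% to 4.27% without an Axin2+/GFP+ replicate, against 4.64% with all samples.

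By the methods' t-test with Benjamini-Hochberg adjustment, which the methods do not state, 3 collagens were higher and 0 lower, with 2 fibrillar, 1 FACIT, 0 network and 0 other chains, against 1.06% of all genes higher. After centring on the receptor genes 4 were higher and 1 lower, with 3 fibrillar, 0 FACIT, 0 network and 1 other chain, and the median was 0.15. Over all genes that centring gave 210 higher and 3971 lower. With the filter on dim features 26 collagens were tested and 13 were higher, with 0 network chains and a median of 0.64. Over all 8863 genes tested under that filter, 5.24% were higher and 25.6% lower, with a median change of -0.26. The network count was also 0, and that of the other chains 1, after median centring and with the replicate block. Quantile normalization and cyclic loess each gave 0 network chains and 3 others. The intensity trend gave 1 other, with 5.69% of all genes higher. At an unadjusted p under 0.05, 24 were higher in limma, against 16.3% of all genes, and 21 in the methods' t-test, against 14.8%, a threshold added after seeing the data. With the replicate number as a block 11 collagens were higher, and over all genes 643 were higher and 2201 lower, against 926 and 2265 without it. Deviations of same-numbered samples correlated at 0.031, 0.011 and 0.053, and those of other-numbered samples at -0.050 to 0.017. With 3 samples in each group these values cannot tell whether same-numbered samples came from 1 pool.

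Signs of collagens that were not called turned in some settings. After centring on the receptor genes the change was -0.0496 for Col20a1, -0.23 for Col25a1, -0.11 for Col28a1, -0.27 for Col4a1, -0.0399 for Col4a2, -0.0391 for Col4a3, -0.0459 for Col4a4, -0.14 for Col4a5, -0.0837 for Col4a6, -0.14 for Col6a6, -0.15 for Col9a1 and -0.0024 for Col9a3. After cyclic loess it was -0.0665 for Col25a1, -0.0469 for Col28a1, -0.0462 for Col4a5 and -0.0177 for Col9a1, after median centring -0.0330 for Col25a1 and -0.0712 for Col4a1, and after quantile normalization -0.0008 for Col25a1. Without Axin2+/GFP+ replicate 2 Col25a1 was at -0.0281, in a range up to 0.1808 with 1 sample left out, and without Axin2-/GFP- replicate 1 Col8a1 was at 0.0759, in a range down to -0.5026. The receptor centring takes 0.32 and the median centring 0.12 off the change of every gene, so the 12 and 2 genes that turned there are those whose change lay between 0 and that value. The cause of the other turns was not tested.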
